A study of Homo sapiens with 8 samples.

Results

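The acyl-CoA dehydrogenases and the electron transfer flavoprotein were followed as 10 genes: the dehydrogenases ACADVL, ACADM, ACADS, ACADSB, ACAD8, ACAD9 and ACAD10, the flavoprotein subunits ETFA and ETFB, and the flavoprotein's own dehydrogenase ETFDH. The genes were picked by name, matched to the table's versioned Ensembl identifiers through their symbols, and all 10 were found among the 67060 genes of the table and among the 21993 that had enough reads to be tested. The libraries came from SH-SY5Y cells, a human neuroblastoma line that the labels class as neuronal progenitors. At 80% confluence the cells received 0.5 ul of adenovirus, and RNA was taken after 48 h. In the ERRg group (n = 4 libraries) the virus encoded the biotin ligase BioID joined to Flag-tagged ERRg, the nuclear receptor estrogen-related receptor gamma. In the GFP group (n = 4 libraries) it encoded BioID joined to green fluorescent protein carrying a nuclear localisation signal, so cells of both groups carried virus and BioID. The labels give a volume of virus and not a dose per cell, and the promoter that drove the fusion proteins is not given in the sources used here.

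Acyl-CoA dehydrogenases are flavoenzymes of the mitochondrial matrix. Each takes a pair of hydrogens from an acyl-CoA, which is the opening step of every round of fatty acid beta-oxidation and also a step in the breakdown of branched-chain amino acids. The electrons pass from the enzyme's FAD to the electron transfer flavoprotein, a heterodimer of ETFA and ETFB, and from there to ETFDH in the inner membrane, which hands them to coenzyme Q of the respiratory chain. Estrogen-related receptors are known as activators of oxidative metabolism genes, ACADM among the best-described, while neurons are usually described as burning little fat.

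The GFP libraries held 27.7 to 35.5 M reads in genes (M, 1000000 reads) and the ERRg libraries 21.02 to 23.0 M. ESRRG, the gene of ERRg, was at 32.7 to 37.1 CPM (reads per 1000000, on library sizes scaled by TMM, a trimmed mean of log ratios) in GFP and at 711 to 888 CPM in ERRg, counted without separating virus from cell. The share of reads that fell in no annotated exon was 20.9% ± 3.58 for GFP (SD, n = 4) and 46.7% ± 1.31 for ERRg (SD, n = 4), with no overlap. Of 18 markers of sympathetic neuroblastoma, 14 were above 1 CPM in every library, among them HAND2 and GATA3, while TH and CHGA are listed at 0 in every library. The summed level of these markers was 956 to 1108 CPM in GFP and 690.2 to 733 CPM in ERRg. Of 6 fibroblast markers, 5 were above 1 CPM in every library, with sums of 1569 to 1759 CPM in GFP and 891 to 985 CPM in ERRg. Most of these sums was COL3A1 (means of 1432 CPM in GFP and 809 CPM in ERRg), and LUM was higher in ERRg (16.9 and 21.4 CPM). Markers of endothelial cells (sums of 1.20 to 2.40 CPM over all libraries) and immune cells (0.214 to 0.936 CPM) were near 0, those of Schwann cells and glia summed to 7.45 to 7.78 CPM in GFP and 4.68 to 5.81 CPM in ERRg, and the epithelial list summed to 236 to 316 CPM in GFP and 171 to 242 CPM in ERRg, nearly all of it KRT18 and KRT8. The part of these differences in the results below was not tested.

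The single comparison of the design sets ERRg against GFP. ACADM, ACADSB and ETFDH rose, by 2.79-fold, 2.54-fold and 2.26-fold, and these 3 were higher in ERRg under each scaling and each offset tried. ACADVL, ACADS, ACAD8, ACAD9, ACAD10 and ETFB were called lower on the TMM scale by edgeR, and ETFA was not called. Of the 10 genes, 3 were therefore higher and 6 lower, with a median log2 fold change of -0.32. Among all 21993 genes tested, 38.8% were called higher and 35.9% lower (74.7% in either direction, median 0.09), so a call by itself is common in this comparison. All 10 are coding genes, and of the 13426 coding genes tested 29% were called higher and 50.6% lower on the same scale (median -0.30), so that the members' counts and median lie near those of coding genes. In 8 of the 10 genes no ERRg library overlapped a GFP library, against 68.4% of all genes tested. In RNA from whole cultures, fewer cells that make a transcript and less of it per cell cannot be told apart.

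The 6 lower calls depended on how the libraries were scaled or on the offsets described below. Across coding genes the fold change went down as transcript GC content went up, with a median log2 fold change of 0.62 in the decile of lowest GC content (30.2% to 38.4%) and of -1.33 in the highest (61.5% to 74.5%). Each fold change is therefore also given from a fit of the 13426 coding genes with library-wise offsets for GC content, transcript length and gene span, called the offset fit below. In that fit 6 of the 10 genes were higher (ACADM, ACADSB, ETFDH, ACADVL, ACAD8 and ACAD10), 1 was lower (ETFA) and 3 were not called (ACADS, ACAD9 and ETFB), with a median of 0.29, against 30.3% of coding genes higher and 41.7% lower (median -0.08). None of the 6 lower calls of the TMM scale was lower in it. With offsets taken from each gene's principal transcript, an alternative added after seeing the data, 7 were higher (the same 6 and ETFB) and 1 lower (ETFA), against 30% and 41.8% of coding genes. Tested against a log2 fold change of 1 on the TMM scale, ACADM and ACADSB were called higher, against 7.69% of all genes, and 0 of the 10 were called lower (1 at an unadjusted p under 0.05), against 10.5% of all genes. With upper-quartile factors, under which 11041 of all genes were higher and 6045 lower and the median of all genes was 0.40 in place of 0.09, 4 of the 10 were higher (ETFA being the added gene) and 3 lower (ACADVL, ACADS and ACAD9). With library totals (11791 higher and 5383 lower, median 0.50) 4 were higher and 2 lower (ACADVL and ACADS). ACADVL and ACADS were thus called lower under every library scaling tried, and not with the offsets.

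**Figure D1:**
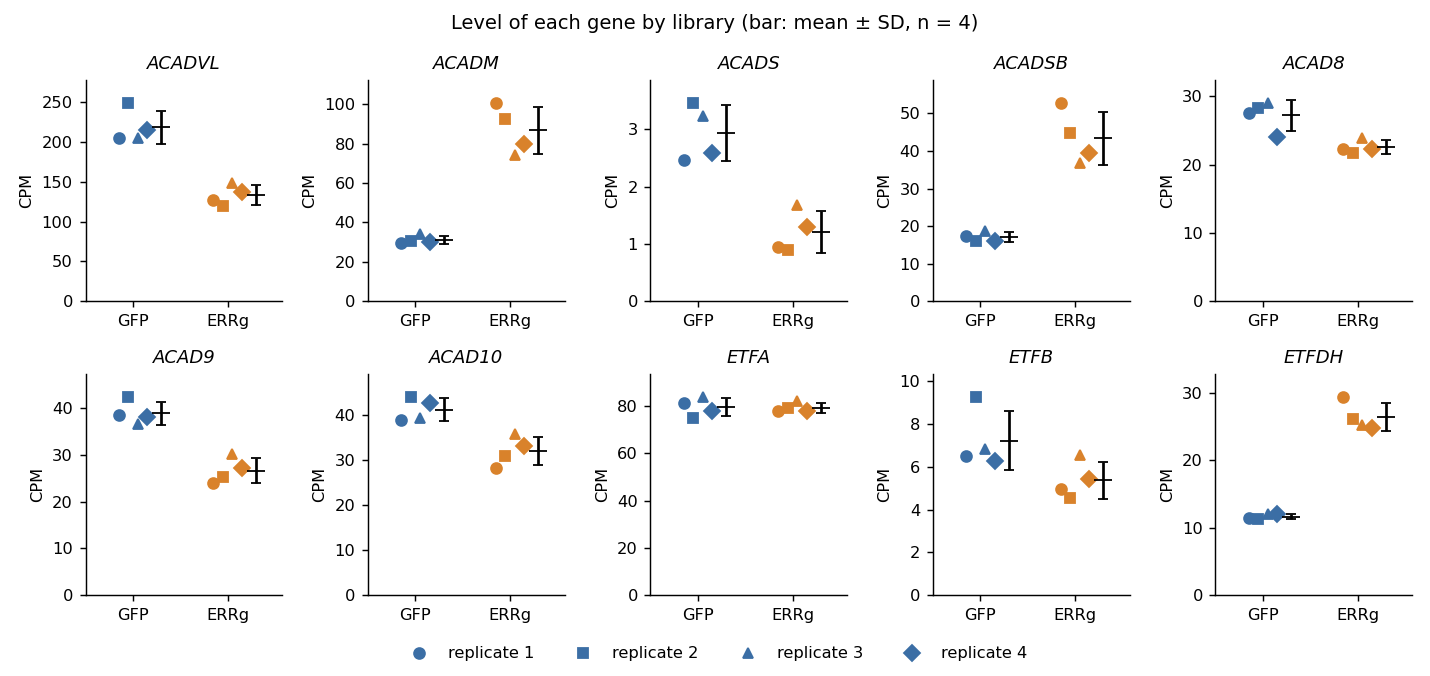
Level of each of the 10 genes in CPM (vertical axis, from 0) in the 4 GFP libraries (blue) and the 4 ERRg libraries (orange), with marker shape giving the replicate number and a black bar the mean ± SD. ACADM, ACADSB and ETFDH stand higher in every ERRg library, while ETFA lies between 75.1 and 83.7 CPM in all 8.

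The dehydrogenases of straight-chain fatty acids moved in different directions on the TMM scale, while in the offset fit none of them was called lower. ACADM, which acts on medium-chain acyl-CoAs, was at 29.5, 30.5, 33.9 and 30.2 CPM in GFP libraries 1 to 4 and at 100.35, 92.5, 74.4 and 79.6 CPM in ERRg libraries 1 to 4. All ERRg libraries were thus higher than the highest GFP library, and ERRg libraries 1 and 2 were higher than 3 and 4. Its log2 fold change came to 1.48 (SE 0.10, adjusted p = 1.69e-10 by edgeR) and 1.15 (SE 0.06, adjusted p = 3.25e-11 by edgeR) in the offset fit. The gene lies on chromosome 1 from 75724347 to 75787575 on the plus strand (GRCh38, GENCODE release 29), and 157 of its exon bases are shared with RABGGTB on the same strand, where counting by exon overlap may not tell the genes apart.

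ACADVL, the membrane-bound enzyme of very long chains, was at 205, 248, 204 and 214 CPM in GFP and at 127, 119.7, 149 and 137 CPM in ERRg. No library of ERRg reached the lowest of GFP, and GFP library 2 was the highest of all. The log2 fold change stood at -0.71 (SE 0.09, adjusted p = 9.88e-07 by edgeR) on the TMM scale, and it turned to 0.42 (SE 0.05, adjusted p = 8.39e-07 by edgeR) in the offset fit. ACADVL lies on chromosome 17 from 7217125 to 7225273, and its transcript has 58.8% GC, a decile whose coding genes had a median log2 fold change of -1.16. It shares 85 exon bases with DLG4 on the opposite strand.

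ACADS, the enzyme of short chains, was the least abundant of the 10, with 63 to 100 reads in each GFP library and 23 to 41 in each of ERRg. It was at 2.46, 3.45, 3.24 and 2.59 CPM in GFP and at 0.946, 0.901, 1.68 and 1.30 CPM in ERRg. ERRg libraries were lower throughout, with libraries 1 and 2 the lowest. Its log2 fold change came to -1.29 (SE 0.22, adjusted p = 2.47e-05 by edgeR) and did not pass the test in the offset fit (-0.02, SE 0.19, adjusted p = 0.941 by edgeR). The value without ERRg libraries 1 and 2 was -0.996 and without 3 and 4 it was -1.68. ACADS lies on chromosome 12 from 120725735 to 120740008 and has the most GC-rich transcript of the 10, at 64.6%.

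The enzymes of branched-chain acyl-CoAs also differed from each other. ACADSB, which acts on the short branched chain that comes from isoleucine, was at 17.3, 16.2, 18.8 and 16.1 CPM in GFP and at 52.7, 44.9, 36.8 and 39.4 CPM in ERRg. Again the groups were separate, and ERRg libraries 1 and 2 were the highest. The log2 fold change stood at 1.35 (SE 0.11, adjusted p = 1.22e-09 by edgeR) and 0.87 (SE 0.07, adjusted p = 3.44e-09 by edgeR) in the offset fit. ACAD8, the isobutyryl-CoA dehydrogenase of valine breakdown, was at 27.6, 28.3, 28.97 and 24.0 CPM in GFP and at 22.3, 21.7, 23.97 and 22.4 CPM in ERRg. The highest ERRg library and the lowest GFP library nearly met. Its log2 fold change of -0.27 (SE 0.09, adjusted p = 0.0141 by edgeR) turned to 0.35 (SE 0.06, adjusted p = 5.50e-05 by edgeR) in the offset fit, was 0.03 (adjusted p = 0.730) with upper-quartile factors and 0.14 (adjusted p = 0.218) with library totals. ACADSB lies on chromosome 10 from 123008979 to 123058311 and ACAD8 on chromosome 11 from 134253495 to 134265855.

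Promoter windows were read from RefSeq sequences on GRCh38.p14, which hold 250 bases before and 50 after an annotated start. Of the 10 genes, 9 had at least 1 window (11 windows in all), and ETFDH had none. The response element of estrogen-related receptors, TNAAGGTCA searched on both strands, was in 0 of these 11 windows and in 334 of all 35116 windows (0.951%). Its core AAGGTCA, which the longer form contains, was in 0 of the 11 and in 3.92% of all windows. These letters are not in these windows, which says nothing of sites farther away. The bases before the start that lie in no annotated exon are shown for ACAD8, whose direction turned between the TMM scale and the offset fit, as chr11:134253318-134253494 on the plus strand and 5′ to 3′, with no capitals because they hold no match.
ACAD8: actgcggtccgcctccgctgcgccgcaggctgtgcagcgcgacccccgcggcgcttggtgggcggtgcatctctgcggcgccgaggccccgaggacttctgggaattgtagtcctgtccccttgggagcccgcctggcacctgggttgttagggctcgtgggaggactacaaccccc

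ACAD9 and ACAD10 are homologues with other or less settled roles. ACAD9, which is needed to assemble complex I of the respiratory chain, was at 38.6, 42.3, 36.5 and 38.0 CPM in GFP and at 23.9, 25.3, 30.1 and 27.1 CPM in ERRg. ACAD10 was at 39.0, 44.0, 39.4 and 42.7 CPM in GFP and at 28.3, 30.95, 35.7 and 33.1 CPM in ERRg. In both genes every ERRg library was lower than every GFP library, with ERRg library 3 the nearest to GFP. The log2 fold change of ACAD9 was -0.55 (SE 0.10, adjusted p = 3.36e-05 by edgeR) and that of ACAD10 was -0.37 (SE 0.09, adjusted p = 0.00162 by edgeR). In the offset fit ACAD9 did not pass the test (0.08, SE 0.05, adjusted p = 0.171 by edgeR) and ACAD10 was higher (0.24, SE 0.06, adjusted p = 0.00111 by edgeR). With upper-quartile factors ACAD10 was not called (-0.06, adjusted p = 0.517). ACAD9 lies on chromosome 3 from 128879596 to 128916067, sharing 454 exon bases with CFAP92 on the opposite strand, and ACAD10 on chromosome 12 from 111686056 to 111757107.

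The subunits of the flavoprotein and its dehydrogenase gave different results. ETFA, the subunit that holds most of the FAD site, was at 81.4, 75.1, 83.7 and 78.0 CPM in GFP and at 77.7, 79.03, 81.96 and 77.97 CPM in ERRg. The groups overlapped, and the log2 fold change was -0.01 with an interval of -0.18 to 0.17 at 95% confidence (adjusted p = 0.943 by edgeR). That value depends on the scale: it was 0.30 (adjusted p = 0.00232) with upper-quartile factors, 0.40 (adjusted p = 3.52e-04) with library totals, and -0.15 (SE 0.05, adjusted p = 0.0114 by edgeR) in the offset fit. ETFA lies on chromosome 15 from 76215355 to 76311472 on the minus strand.

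ETFB was counted far lower than its partner, at 121 to 268 reads per library against 1888 to 2325 for ETFA. It was at 6.49, 9.25, 6.84 and 6.26 CPM in GFP and at 4.98, 4.54, 6.53 and 5.41 CPM in ERRg. GFP library 2 stood above the rest, and ERRg library 3 overlapped the GFP range. Its log2 fold change came to -0.43 (SE 0.15, adjusted p = 0.0148 by edgeR), and without ERRg libraries 1 and 2 the call was lost (-0.29, adjusted p = 0.134). In the offset fit it did not pass the test (-0.04, SE 0.13, adjusted p = 0.802 by edgeR). That offset rested on the longest annotated transcript, of 3551 bases and 48.7% GC, while the principal transcript has 900 bases and 62.0% GC. With offsets from principal transcripts ETFB was higher (0.67, SE 0.11, adjusted p = 2.91e-05 by edgeR), so that its direction differed between the fits. The gene lies on chromosome 19 from 51345169 to 51366418 on the minus strand. It shares 337 exon bases with ENSG00000269403 on the same strand, and reads that fall in more than 1 gene were left unassigned in the table, a share of 12.1% ± 1.46 for GFP and 5.44% ± 0.415 for ERRg.

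The bases before the starts of these partner subunits are shown because a heterodimer's genes were counted so unequally, ETFA from chr15:76311473-76311719 and ETFB from chr19:51366419-51366638, both on the minus strand of GRCh38.p14 and 5′ to 3′, again without a match to the element. ETFB had a further window, whose bases before the start begin in an annotated exon and are not shown.
ETFA: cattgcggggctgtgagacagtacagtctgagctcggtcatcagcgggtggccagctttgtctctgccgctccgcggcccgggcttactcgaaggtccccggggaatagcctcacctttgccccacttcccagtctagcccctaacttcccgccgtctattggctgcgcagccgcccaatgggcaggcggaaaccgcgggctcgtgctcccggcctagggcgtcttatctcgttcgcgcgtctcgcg
ETFB: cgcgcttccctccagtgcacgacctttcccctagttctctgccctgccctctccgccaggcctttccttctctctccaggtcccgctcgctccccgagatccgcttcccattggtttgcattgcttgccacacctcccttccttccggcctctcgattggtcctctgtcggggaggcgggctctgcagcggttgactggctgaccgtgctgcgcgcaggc

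ETFDH was at 11.4, 11.2, 11.98 and 11.98 CPM in GFP and at 29.3, 26.2, 25.2 and 24.8 CPM in ERRg. The GFP libraries lay close together, and every ERRg library was higher than all of them. The log2 fold change stood at 1.18 (SE 0.10, adjusted p = 1.30e-09 by edgeR) and 1.16 (SE 0.07, adjusted p = 1.85e-10 by edgeR) in the offset fit, so that of the 3 genes that rose it changed least with the offsets. It lies on chromosome 4 from 158672125 to 158709623 and shares 490 exon bases with PPID and 131 with C4orf46, both on the opposite strand. The libraries kept strand but the counting setting is unknown here. Reads over exon bases shared with opposite-strand neighbours may therefore have been left unassigned, as lying in more than 1 gene. PPID had 1186 to 1878 reads per library, and the lowest ETFDH count was 291. The share of such unassigned reads differed between the groups (12.1% for GFP and 5.44% for ERRg). Its part in the values of ETFDH and ACADM was not tested.

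**Figure D2:**
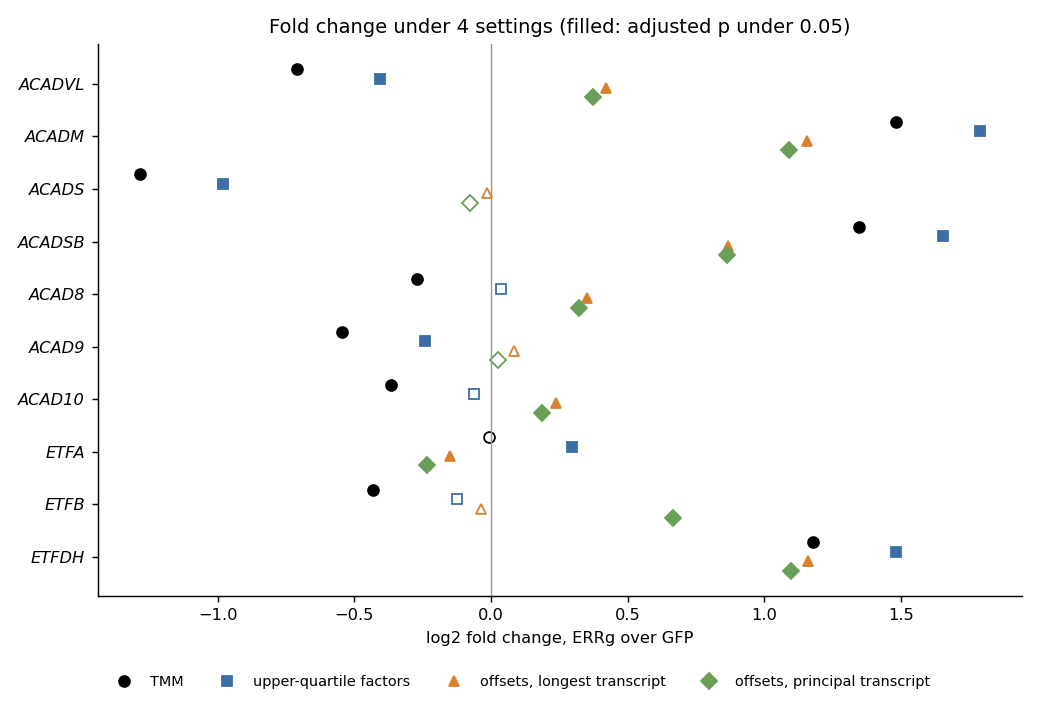
Log2 fold change of each gene, ERRg over GFP (horizontal axis), on the TMM scale (black circles), with upper-quartile factors (blue squares) and with offsets from the longest (orange triangles) or principal (green diamonds) transcript, filled where the adjusted p was under 0.05. ACADM, ACADSB and ETFDH stay right of 0 throughout, while ACADVL moves from -0.71 to 0.42 and ETFB from -0.43 to 0.67.

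Among the members the fold change and GC content ran in opposite directions (Pearson r = -0.899 over the 10 genes, which share their libraries and are not replicates). Most members lay near coding genes of like GC content. ETFA (43.8% GC) was close to the median of its decile, 0.02, and ACADS close to -1.33. The 3 genes that rose lay higher than the upper quartile of their deciles, which was 0.64 for ACADM, 0.76 for ACADSB and 0.43 for ETFDH. ACADVL, at -0.71, lay at the upper quartile of its decile, -0.72.

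**Figure D3:**
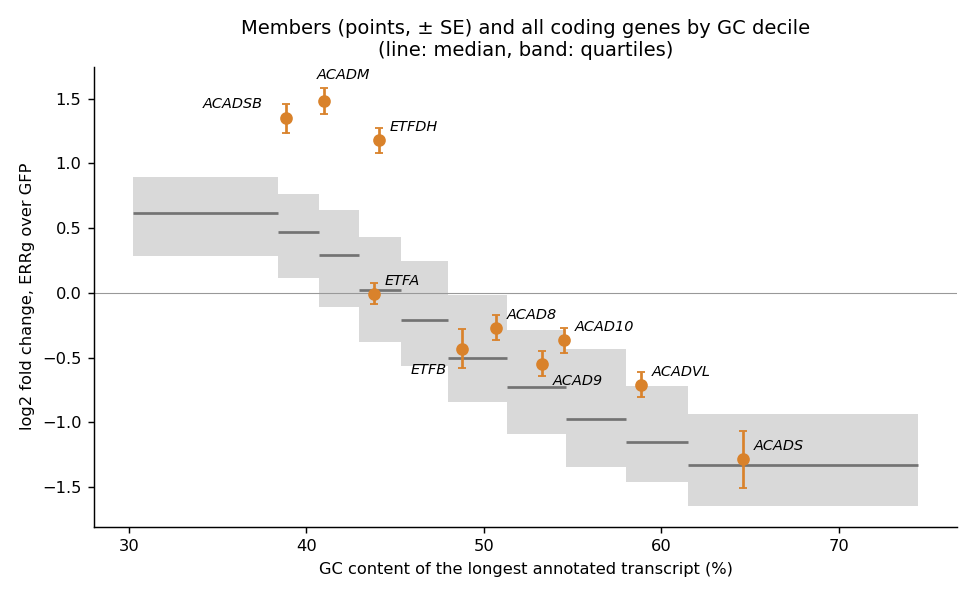
Log2 fold change on the TMM scale (vertical axis, ± SE) against GC content of the longest annotated transcript in percent (horizontal axis) for the 10 genes (orange points), over the median (grey line) and quartiles (grey band) of all coding genes tested in each GC decile. ACADM, ACADSB and ETFDH stand clear of the band, and the other genes lie in it or at its edge.

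Ratios of a pair of genes within a library do not depend on how libraries are scaled. The log2 ratio of ACADM to ACADVL reads was -2.81 ± 0.177 in the 4 GFP libraries and -0.63 ± 0.322 (SD) in the 4 of ERRg (difference 2.18, exact two-sided permutation p = 0.0286, adjusted over 5 ratios p = 0.0286). The ratio of ACADM to ACADS went from 3.41 ± 0.198 to 6.20 ± 0.611, a difference of 2.79. ACAD8 over ACADSB went from 0.67 ± 0.0985 to -0.93 ± 0.270 (difference -1.60), so that ACAD8 had more reads than ACADSB in every GFP library and fewer in every ERRg library. ETFDH over ETFB went from 0.71 ± 0.291 to 2.31 ± 0.290 (difference 1.60). ETFA over ETFB went from 3.48 ± 0.307 to 3.90 ± 0.198, a difference of 0.42, and the highest GFP library (3.648) and the lowest ERRg library (3.651) all but met. Each of the 5 differences had the exact permutation p = 0.0286, the smallest that 4 against 4 libraries can give. For ACADM over ACADVL, ACADM over ACADS, ACAD8 over ACADSB and ETFDH over ETFB that p was fixed by the levels already given. In CPM, every ERRg library already exceeded every GFP library for ACADM and ACADSB and lay below them all for ACADVL, ACADS and ACAD8. The lowest ERRg library of ETFDH was at 24.8 CPM and the highest GFP library at 11.98 CPM. For ETFB the highest ERRg library was at 6.53 CPM and the lowest GFP library at 6.26 CPM. The p-values of these ratios therefore add nothing to the calls of those genes. With the offsets the differences were 0.73 for ACADM over ACADVL, 1.17 for ACADM over ACADS, -0.51 for ACAD8 over ACADSB and 1.20 for ETFDH over ETFB, and that of ETFA over ETFB turned to -0.11. Without GFP library 2 the difference of ETFA over ETFB was 0.26.

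**Figure D4:**
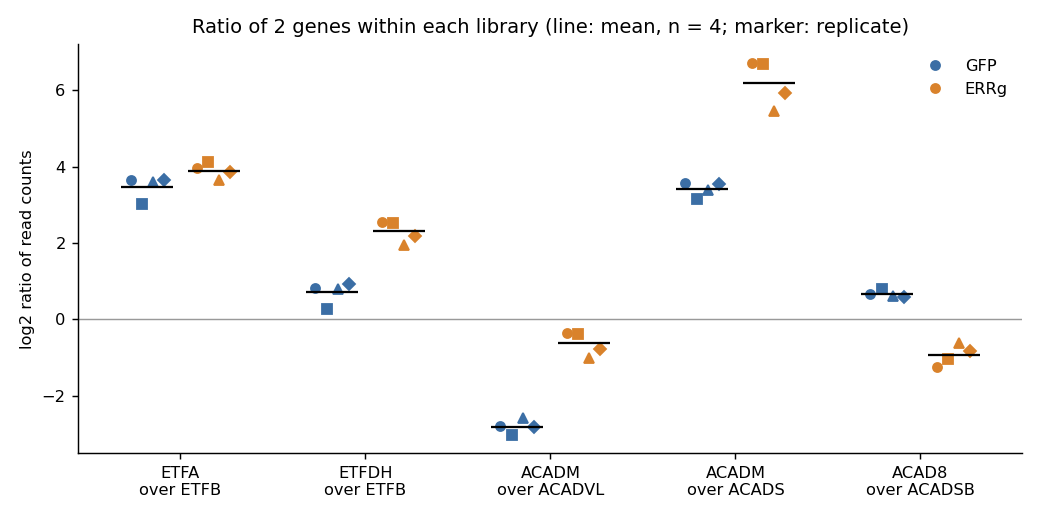
Log2 ratio of the read counts of 2 genes within each library (vertical axis) for the 5 pairs, GFP in blue and ERRg in orange, with marker shape giving the replicate and a line the mean of 4. The groups are apart in every pair, by the most for ACADM over ACADS (2.79) and by the least for ETFA over ETFB (0.42).

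The order of the levels was compared per kilobase of each gene's principal transcript, on the TMM scale without offsets for GC content. The limits given above for the reads of ETFB hold for its place in this order too. In GFP it ran from ACADVL (93.9 ± 8.87 CPM per kb) and ETFA (34.8 ± 1.65) through ACAD9 (15.8 ± 1.00), ACAD8 (12.1 ± 0.987), ACADM (11.8 ± 0.749), ACAD10 (10.4 ± 0.623) and ETFB (8.01 ± 1.53) to ETFDH (3.55 ± 0.116), ACADSB (2.91 ± 0.216) and ACADS (1.51 ± 0.247). The library ranges of ACAD8 and ACADM overlapped, as did those of ACAD10 and ETFB. In ERRg the level of ACADM was 33.1 ± 4.53 CPM per kb, and its range overlapped that of ETFA (34.6 ± 0.854) below ACADVL (57.4 ± 5.45). ACAD9 (10.8 ± 1.09) overlapped ACAD8 (10.05 ± 0.429), and next came ACAD10 (8.09 ± 0.803), ETFDH (8.03 ± 0.630), ACADSB (7.41 ± 1.20) and ETFB (5.96 ± 0.945), each overlapping its neighbour. ACADS was lowest again, at 0.619 ± 0.186 CPM per kb.

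The ERRg libraries were not alike in size of effect. In 9 of the 10 genes, all but ETFA, libraries 1 and 2 both lay farther from the GFP mean than libraries 3 and 4, which held for 54.8% of all genes called. For ACAD8 this rested on 22.34 against 22.36 CPM in ERRg libraries 1 and 4. ESRRG did not follow this order, at 824 and 711 CPM in libraries 1 and 2 and at 888 and 809.95 CPM in 3 and 4. Reads outside annotated exons were 48.3% and 47.3% in libraries 1 and 2 and 45.5% and 45.8% in 3 and 4. In GFP, library 2 had the lowest such share, 16.2%, and the highest ACADVL, ACADS, ACAD9, ACAD10 and ETFB levels of the 4. It also had the lowest ETFA and ETFDH levels, and its ACADM, ACADSB and ACAD8 levels lay between those of the others. The part of the share of reads outside exons in the results cannot be told apart from the group, since the shares of the groups do not overlap. With the share as a covariate in edgeR, 0 of the 10 genes were called in either direction (2 higher and 0 lower at an unadjusted p under 0.05). ACADM (1.17), ETFDH (0.79) and ACADSB (0.68) were still above 0 in that fit. So were ETFB (1.501), ACADS (0.77), ACAD10, ACADVL, ACAD8 and ACAD9, while ETFA was below 0. That fit therefore does not set ACADM, ETFDH and ACADSB apart from the other members.

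Other genes of the pathway were read from 8 lists of 79 genes in all, 72 of them tested. On the TMM scale 22 were higher and 38 lower (median -0.29), and in the offset fit 22 were higher and 29 lower (median -0.04). Coding genes had a median of -0.30 on the TMM scale, with 29% higher and 50.6% lower, and of -0.08 in the offset fit, with 30.3% higher and 41.7% lower. The counts of each list below are to be read against these shares. Of the 7 genes with too few reads to test, DMGDH, SLC52A1, SLC52A2, ACSL6, CPT1B and BCKDHA never exceeded 18 reads, and SLC52A3 is listed at 0. A low count says little here on whether the RNA was made.

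Of the other 4 acyl-CoA dehydrogenases, 1 was higher and 2 lower. IVD, the isovaleryl-CoA dehydrogenase of leucine breakdown, fell from 85.7 ± 7.10 to 35.1 ± 3.42 CPM (log2 fold change -1.29, adjusted p = 3.49e-10 by edgeR) and was lower in the offset fit too (-0.68, adjusted p = 3.27e-09 by edgeR). GCDH, the glutaryl-CoA dehydrogenase of lysine breakdown, was lower on the TMM scale (-1.09, adjusted p = 3.24e-08 by edgeR) and did not pass the test in the offset fit (-0.13, adjusted p = 0.122 by edgeR). ACAD11 had 0.679 ± 0.158 CPM in GFP and 1.07 ± 0.231 in ERRg (0.64, adjusted p = 0.0428 by edgeR), a call that was lost with either DESeq2 setting and on leaving out any 1 of 6 of the 8 libraries. ACADL, the long-chain enzyme, was at 0.938 ± 0.273 and 1.35 ± 0.458 CPM and was not called (0.52, adjusted p = 0.1097 by edgeR).

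Of the 9 genes for later steps of mitochondrial beta-oxidation, 8 were lower and 1 higher on the TMM scale (median -0.67), and 6 were lower and 2 higher in the offset fit (median -0.38). HSD17B10, a dehydrogenase of short and branched chains, was lowest on the TMM scale (-1.38, and -0.21 in the offset fit), and HADH, which acts on hydroxyacyl-CoAs, was lowest in the offset fit (-0.67 and -0.68). HADH is named after its values were seen. DECR1, the dienoyl-CoA reductase that works on unsaturated chains, was the gene that was higher in both fits (0.72 and 0.67). In fatty acid activation and the carnitine shuttle, 4 of 10 tested genes were higher and 5 lower, and in the offset fit 4 were higher and 3 lower. ACSL5, an acyl-CoA synthetase, was highest (1.15 and 1.16), from 0.525 ± 0.113 CPM in GFP to 1.16 ± 0.434 CPM in ERRg. Its groups overlapped, with ERRg library 3 at 0.616 CPM (15 reads) and GFP library 2 at 0.621 CPM (18 reads). The neuronal carnitine palmitoyltransferase homologue CPT1C was lowest on the TMM scale (-1.20, and -0.31 in the offset fit).

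Branched-chain amino acid breakdown, which supplies ACADSB and ACAD8, had 7 of 15 tested genes higher and 5 lower (median 0.19), and 7 higher and 6 lower in the offset fit (median 0.09). ACAT1, the mitochondrial thiolase that ends isoleucine breakdown, rose from 24.6 ± 1.65 to 49.9 ± 2.96 CPM (1.02 and 0.89). BCKDK, the kinase that inhibits the branched-chain ketoacid dehydrogenase, fell from 101.9 ± 12.2 to 36.2 ± 7.86 CPM (-1.49 and -0.29). Among other donors, regulators and cofactor supply of the flavoprotein, 3 of 7 tested genes were higher and 3 lower, and in the offset fit 1 was higher and 2 lower. FLAD1, which makes FAD, fell from 134 ± 17.04 to 49.8 ± 6.82 CPM (-1.43 and -0.61), while the folate and FAD carrier SLC25A32 was called higher on the TMM scale and not in the offset fit (0.54, adjusted p = 0.0289 by edgeR, and 0.32, adjusted p = 0.157), a call lost on leaving out any 1 of 5 of the 8 libraries.

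Peroxisomal beta-oxidation had 4 members higher out of 10, and 5 lower, against 2 and 5 in the offset fit, with the transporter ABCD3 (1.22 and 0.61) as the highest of the list. Of the 6 partners of ACAD9 in complex I assembly, 5 were lower and 1 higher on the TMM scale, and 3 and 2 in the offset fit. On the TMM scale TMEM186 was lowest (-1.06, and -0.41 in the offset fit) and COA1 highest (0.25 and 0.24). The COA1 call was lost on leaving out any 1 of 4 of the 8 libraries, and its value was -0.08 with principal-transcript offsets. Coenzyme Q synthesis, which makes the acceptor of ETFDH, had 1 of 11 genes higher and 5 lower, and 3 and 3 in the offset fit. PDSS1, a subunit of the enzyme that makes its side chain, was higher in both fits (0.47 and 0.51), and COQ8B was lower on the TMM scale and not in the offset fit (-1.03 and 0.06, adjusted p = 0.344 by edgeR). No list was tested as a set, and the 10 genes were not tested against the lists.

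**Figure D5:**
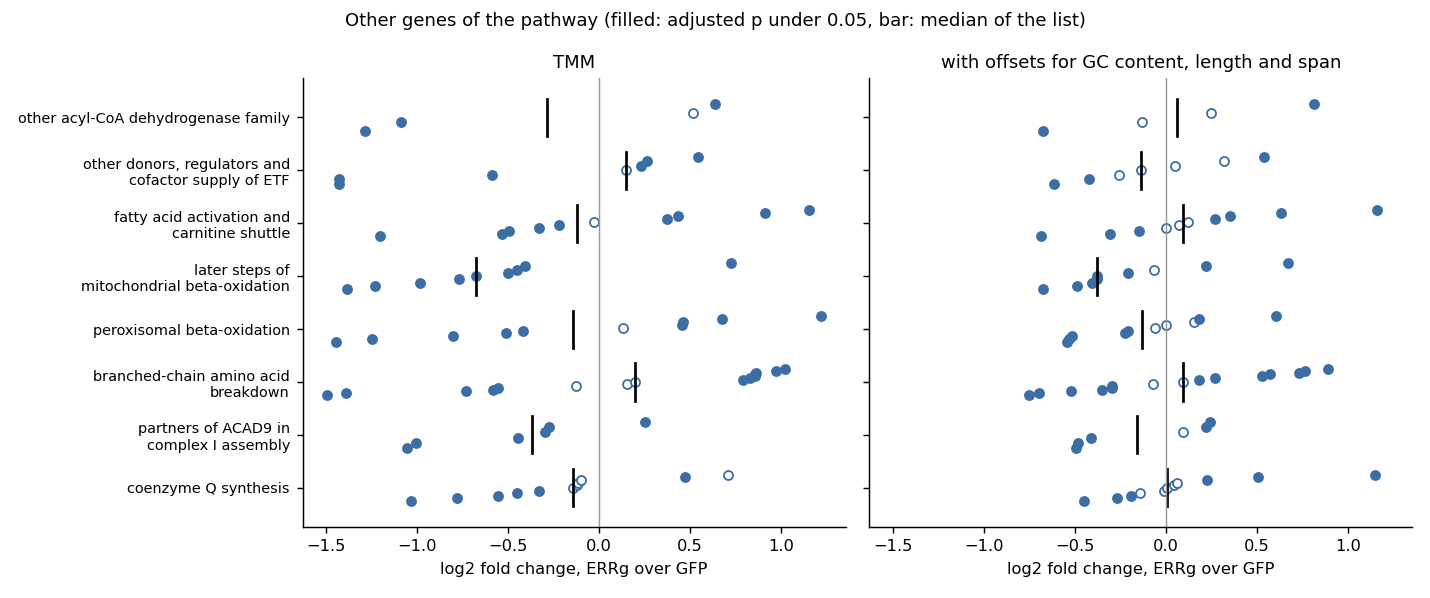
Log2 fold change, ERRg over GFP (horizontal axes), of each tested gene in the 8 lists, on the TMM scale (left) and in the offset fit (right), filled where the adjusted p was under 0.05, with a black bar at the median of each list. The median of the later steps of beta-oxidation lies left of 0 in both panels (-0.67 and -0.38).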

How the data were processed

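Raw read counts per gene were deposited by the authors in 1 table without normalisation. The genome build was GRCh38, per the submitters' processing notes, which also list the tools STAR 2.7.8a, HTSeq 0.11.3, Trim Galore 0.6.6, DESeq2 and CASAVA. Neither the annotation release nor the strand setting is given in these sources. A name table gave symbols for 60419 identifiers, and positions, GC content and lengths came from GENCODE release 29 (58444 identifiers). The 5 summary lines that name no gene entered neither library sizes nor tests. They include reads outside exons (16.2% to 48.3% of a library) and reads in more than 1 gene (5.05% to 14.1%). Counts were compared with edgeR 4.0.16 in R 4.3.3 (quasi-likelihood, TMM, filterByExpr, group as sole term, two-sided, Benjamini-Hochberg adjusted p under 0.05 over 21993 genes), after a check on simulated counts. That simulation changed 200 genes and held no GC trend, so it says nothing of the calls under the GC trend of these data. SE are back-calculated from the test statistic. Offsets were fitted per library with splines of 5 degrees of freedom on GC content, log length and log span. Ratios were tested by exact permutation over 70 arrangements.

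The 10 genes and the lists were chosen with earlier results of these data known. Members, ESRRG and the 4 other dehydrogenases were always named, and from each other list the called genes with the largest rise and fall and those not tested. Some items that this rule names are not reported here. Other list genes serve as counts. The labels do not say that replicates were separate cultures, so p-values measure only the spread between libraries, which may be technical. No pair of libraries was a duplicate (chi-square per gene 2.94 to 42.7), but ERRg libraries 1 and 2 (2.94) and 3 and 4 (5.12) were closer to each other than across these pairs (10.2 to 23.2). Leaving out those pairs, and offsets from principal transcripts, were alternatives chosen after seeing the data. The alternatives are those of the closing section, with DESeq2 1.42.0 and limma 3.58.1.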

Additional observations from a re-analysis of the deposited data

Results flagged for a closer look

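In GFP, library 2 stood apart in the log2 ratio of ETFA to ETFB reads, at 3.02, where the other GFP libraries lay between 3.61 and 3.65. It was the only value that stood apart by Dixon's 95% criterion among 30 groups of 4 libraries checked, 20 of gene levels and 10 of ratios, and chance alone gives about 1 in 20. The same library had 268 ETFB reads against 152 to 190 in the other GFP libraries, and the lowest share of reads outside annotated exons in its group (16.2%), whose part in the value was not tested.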

How the results depend on the processing

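ACADM and ACADSB were higher and called in 24 of 25 alternatives and ETFDH in 23, the exceptions being the covariate below and, for ETFDH, the test against a log2 fold change of 1 (edgeR adjusted p = 0.059). Leaving out each library in turn gave 3 members higher and 6 lower every time, 7611 to 8518 genes higher and 7755 to 8247 lower over all genes, and 17 to 22 higher and 37 to 38 lower in the pathway lists. The ratio differences then ranged from 0.26 to 0.50 (ETFA over ETFB), 1.45 to 1.72 (ETFDH over ETFB), 2.09 to 2.31 (ACADM over ACADVL), 2.61 to 3.03 (ACADM over ACADS) and -1.71 to -1.50 (ACAD8 over ACADSB). The cause of the changes below was not tested, except that the offset fits hold fewer genes.

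Upper-quartile factors gave 3 members and 25 pathway genes lower, and library totals 2 and 20. They turned ACAD8 to 0.035 and 0.14 and ETFA to 0.30 and 0.40, and library totals turned ACAD10 to 0.039. ETFA was also above 0 with at least 1 CPM in 4 libraries (0.11) and without mitochondrially encoded genes (0.0093). A log2 fold change of 1 as the null left 1692 genes higher and 2302 lower, 0 members lower, and 1 pathway gene higher and 8 lower.

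The offset fits hold coding genes, of which 3887 were higher and 6792 lower on the TMM scale. Offsets for GC content, length and span gave 4062 higher and 5604 lower, with 6 members higher and 1 lower. An offset for GC content alone gave 4261 higher, with 6 and 0 (1 lower at an unadjusted p under 0.05), and principal-transcript offsets 4032, with 7 and 1. In these 3 fits, in that order, ACADVL turned to 0.42, 0.28 and 0.37, ACAD8 to 0.35, 0.19 and 0.32, ACAD9 to 0.084, 0.092 and 0.027, ACAD10 to 0.24, 0.35 and 0.18, and COQ8B to 0.059, 0.12 and 0.011. Principal-transcript offsets also turned ETFB to 0.67 and COA1 to -0.080. With full and with principal-transcript offsets the ratio differences were -0.11 and -0.90 (ETFA over ETFB), 1.20 and 0.43 (ETFDH over ETFB), 0.73 and 0.72 (ACADM over ACADVL), 1.17 and 1.17 (ACADM over ACADS) and -0.51 and -0.54 (ACAD8 over ACADSB).

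With the share of reads outside exons as a covariate, edgeR called 6 genes higher and 2 lower, and 0 members and 0 pathway genes in either direction (at an unadjusted p under 0.05, 2 members higher and 0 lower, and 0 pathway genes higher and 1 lower). The values then turned to 0.22 for ACADVL, 0.77 for ACADS, 0.22 for ACAD8, 0.11 for ACAD9, 0.26 for ACAD10, 1.501 for ETFB, -0.57 for ACADL, -0.70 for SLC25A32, 0.17 for CPT1C, -0.11 for COA1, -0.22 for PDSS1 and 0.19 for COQ8B.

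Libraries share a number, and same-numbered libraries did not deviate together (correlations of 0.114, -0.258, -0.161 and -0.0753). With the replicate number as a block, 8191 genes were higher and 7653 lower, 3 members higher and 6 lower, and 20 pathway genes higher and 37 lower. Of the named genes ACAD11 alone lost its call under the block (0.65, adjusted p = 0.0539 by edgeR). ETFB and ACADS rest on few reads, and the depth limits what can be said of them.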
